A study of Mus musculus with 24 samples.

Results

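Microglia are the resident macrophages of the brain, and 9 of the 30270 genes listed in the deposited tables are described here because they mark these cells or encode their C1q: Cx3cr1, P2ry12, Tmem119, Csf1r, Trem2, Aif1, C1qa, C1qb and C1qc. They were taken by their gene symbols, 1 row each, and the symbols were picked as markers with earlier results of these data known. The series measured mRNA by RNA sequencing in bilateral micropunches of frozen brain, from the nucleus accumbens (NAc) and the ventral tegmental area (VTA) of C57BL/6 mice. The mice were wild-type (VDR+/+) or lacked the vitamin D receptor in all tissues (VDR-/-, written Vdr-/- here), and were injected intraperitoneally with either PBS or morphine (5 mg/kg). Both regions of 12 mice gave 24 libraries, 3 for each of the 8 combinations of region, genotype and injection. The groups were wild-type with PBS (mice 1, 2 and 3), wild-type with morphine (mice 1.0, 1.1 and 1.2), Vdr-/- with PBS (mice 7, 8 and 9) and Vdr-/- with morphine (mice 2.0, 2.1 and 2.2). The methods of the study raised Vdr-/- mice on a diet with added calcium, lactose and phosphate, and age and sex of the sequenced mice are not given in the sources used here. For the sequenced NAc punches the study gives the same time since injection for PBS and morphine, while its methods for other assays on such punches give saline mice a fixed time and morphine mice several.

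Microglia survey the tissue with motile processes and remove debris and synaptic material. They depend on signaling through the receptor encoded by Csf1r, sense the neuronal chemokine fractalkine through Cx3cr1 and released nucleotides through P2ry12, and recognize lipids and damaged cells through Trem2, which signals with the adaptor Tyrobp. Tmem119 encodes a membrane protein used to tell microglia from other macrophages, and Aif1 encodes the actin-binding protein IBA1 used to stain them. C1qa, C1qb and C1qc encode the A, B and C chains of C1q, which starts the classical complement cascade and, in brain, comes mostly from microglia. The 3 chain genes lie side by side on the minus strand of chromosome 4 (GRCm38), in the order C1qb, C1qc, C1qa, over 18675 bases from 136880129 to 136898803.

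Of the other members, 5 are placed here: Cx3cr1 on chromosome 9 (119901616 to 120069879), P2ry12 on chromosome 3 (59216272 to 59262871), Tmem119 on chromosome 5 (113793729 to 113800516), and Trem2 (48346401 to 48354147) and Aif1 (35170991 to 35176068) on chromosome 17. The promoters of the members were searched for short patterns, among them AGGAAG, a core of the sites bound by PU.1, the lineage factor encoded by Spi1. Whether such sites bear on how the members varied across libraries was not tested. RefSeq windows (GRCm38.p6) were matched for 6 of the 9 members, and within the 250 bases before the start AGGAAG was found on either strand in 4 of these 6, against 29.5% of 32851 windows of the same length. The window of Cx3cr1 did not hold AGGAAG. A longer form of this core was found in 1 of the 6 windows, against 2.44% of the 32851 windows. Another pattern, which does not contain AGGAAG, was also found in 1 of the 6, against 2.98%. The windows of a C1q chain and of the receptor with the largest morphine difference are shown 5′ to 3′ on the strand of the gene, and capitals mark AGGAAG or its reverse complement CTTCCT.
C1qb, chr4:136886201-136886450, minus strand: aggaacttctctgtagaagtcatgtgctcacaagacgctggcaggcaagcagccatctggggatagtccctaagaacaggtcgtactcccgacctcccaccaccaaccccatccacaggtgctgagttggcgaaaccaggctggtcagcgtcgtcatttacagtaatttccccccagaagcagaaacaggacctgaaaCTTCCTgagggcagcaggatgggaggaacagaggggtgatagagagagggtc
Trem2, chr17:48346151-48346400, plus strand: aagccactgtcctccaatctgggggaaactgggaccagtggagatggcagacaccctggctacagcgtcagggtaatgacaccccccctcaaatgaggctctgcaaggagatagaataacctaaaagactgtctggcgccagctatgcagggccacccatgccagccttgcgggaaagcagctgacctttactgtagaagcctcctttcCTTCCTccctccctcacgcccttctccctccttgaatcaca
These matches describe letters in the windows, and binding was not measured.

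Libraries held between 9328726 and 30184426 reads on genes (median 16779763.5), and all 9 members were detected in each of the 24 libraries and passed the filter on low values in every comparison. Among other listed genes, 20 of 20 microglia surface and lineage genes and 8 of 8 microglia transcription factors passed it too in both regions. In the fits averaged over genotypes the filter kept 16375 of the 30270 genes in the NAc and 16505 in the VTA. Of 11 monocyte, granulocyte and lymphocyte genes only Cd4 passed in the NAc and none in the VTA. In the VTA the list summed to 0.279 to 3.56 CPM (counts of a gene scaled to the total reads on genes of its library). In the NAc it summed to 37.3 to 63.4 CPM after PBS and 15.2 to 23.9 after morphine. These NAc sums are mainly those of Cd4 and are not read as a level of such cells. The punches differed as their labels say: 10 NAc neuron genes summed to between 2040 and 4215 CPM in the NAc and 226 to 308 CPM in the VTA. Reads on Vdr were 0 to 17 per library (NAc 1 to 14 in wild-type and 0 to 10 in Vdr-/- mice, VTA 2 to 17 and 3 to 17), too few and too overlapping to check the genotype. The NAc library of wild-type PBS mouse 2 stood apart, with a rank correlation of -0.32 between exon length and its difference from the other NAc libraries (-0.09 to 0.16 in those). The sign of this correlation went with injection: it ran from -0.18 to -0.01 in the VTA PBS libraries and from 0.02 to 0.14 in the VTA morphine libraries, and in the NAc it was above 0 in all 6 morphine libraries and in 1 of 6 PBS libraries.

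Per kilobase of transcript, Csf1r and the C1q chains were the most abundant members and Aif1 the least, in both regions. In the VTA of wild-type PBS mice Csf1r averaged 26.7 ± 1.84 CPM per kilobase (SD, n = 3) and Trem2 7.76 ± 0.978. The 3 chains of C1q, which the protein contains in equal number, were close to equal as mRNA. In the NAc of the 6 PBS mice the ratio of C1qa to C1qb per kilobase was 0.955 ± 0.0336 (SD) and that of C1qc to C1qb 0.905 ± 0.0510. After morphine the same ratios were 0.916 ± 0.0958 and 0.936 ± 0.0863, and in the VTA all 4 lay between 0.860 and 0.939. For each ratio the ranges of PBS and morphine libraries overlapped in both regions.

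**Figure D1:**
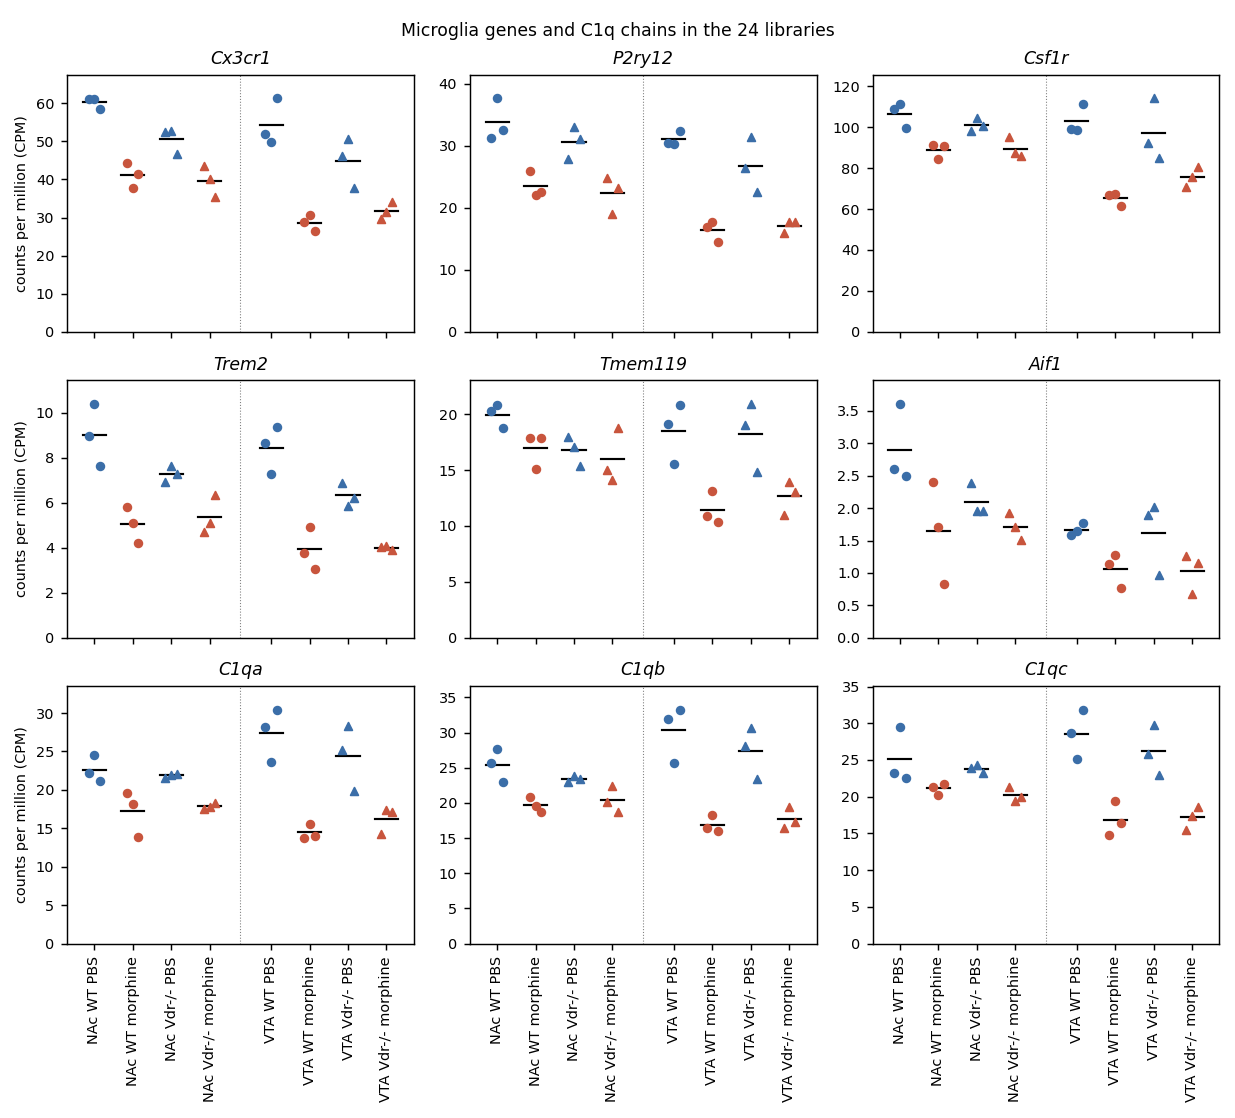
Level of each of the 9 genes in CPM (y axis from 0) in every library, by region, genotype (circles wild-type, WT, triangles Vdr-/-) and injection (blue PBS, red morphine). Points are single mice and bars are means of 3. Morphine libraries sit under the PBS libraries of the same region for most genes, as for Trem2 in the VTA, with 3.06 to 4.93 CPM after morphine and 5.88 to 9.39 after PBS.

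Morphine was the factor with which all 9 genes varied. Each was lower on average after morphine than after PBS in both regions, by 10.4% (Tmem119) to 35.5% (Trem2) in the NAc and by 29.5% (Csf1r) to 45.5% (Trem2) in the VTA. Averaged over genotypes, 7 of 9 passed the threshold in the NAc (limma on log2(CPM + 0.1), Benjamini-Hochberg adjusted p under 0.05), where 18.9% of the 16375 genes tested passed and 6.75% did so with a lower level. In the VTA 9 of 9 passed, against 29.0% of 16505 genes in either direction and 13.9% lower. The median log2 fold change of the 9 members was -0.35 in the NAc and -0.71 in the VTA, beside medians of 0.04 and 0.01 over all genes tested. The shift with exon length described above separates the same libraries, and its part in these differences was not tested. In bulk tissue, fewer microglia and less of these mRNAs per microglia cannot be told apart.

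Among the receptors, Cx3cr1 in the NAc of wild-type mice was at 61.1, 61.1 and 58.6 CPM after PBS and at 44.2, 37.6 and 41.6 after morphine. In Vdr-/- mice it was at 52.4, 52.6 and 46.8 after PBS and at 43.6, 40.2 and 35.4 after morphine. The 6 morphine libraries all lay below the 6 PBS libraries. In the VTA Cx3cr1 was at 52.0, 49.8 and 61.4 CPM in wild-type and 46.2, 50.7 and 37.8 in Vdr-/- mice after PBS. After morphine the values were 28.9, 30.6 and 26.5 in wild-type and 29.5, 31.4 and 34.0 in Vdr-/- mice, again with no overlap. The log2 fold change was -0.45 ± 0.07 (SE) in the NAc and -0.71 ± 0.10 in the VTA (limma adjusted p = 0.000608 and 0.000585).

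P2ry12, the nucleotide receptor that directs processes toward injury, ranged from 27.8 to 37.8 CPM (median 32.0) in the NAc after PBS and from 19.0 to 25.9 (median 22.9) after morphine. In the VTA its range was 22.5 to 32.4 (median 30.4) after PBS and 14.5 to 17.8 (median 17.3) after morphine. Neither pair of ranges overlapped. Its log2 fold change was -0.49 ± 0.08 in the NAc and -0.78 ± 0.09 in the VTA (limma adjusted p = 0.000981 and 0.000238).

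Csf1r, the survival receptor for CSF1 and IL-34, had the highest level in CPM and one of the smaller differences. It ranged from 98.3 to 112 CPM (median 103) in the NAc after PBS and from 84.5 to 95.1 (median 89.2) after morphine. In the VTA it ranged from 84.7 to 114 (median 99.1) after PBS and from 61.3 to 80.7 (median 69.2) after morphine. The groups were again apart in both regions, with log2 fold changes of -0.22 ± 0.05 and -0.50 ± 0.08 (limma adjusted p = 0.00581 and 0.00119).

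Trem2 fell the most on the percent scale. In the NAc it was at 8.97, 10.4 and 7.63 CPM in wild-type mice after PBS and at 5.83, 5.11 and 4.2 after morphine, and in Vdr-/- mice at 6.93, 7.63 and 7.30 after PBS and at 4.70, 5.12 and 6.32 after morphine. In the VTA the wild-type values were 8.64, 7.29 and 9.39 after PBS and 3.77, 4.93 and 3.06 after morphine, and the Vdr-/- values 6.90, 5.88 and 6.23 after PBS and 4.03, 4.09 and 3.88 after morphine. Every morphine library lay below every PBS library of its region. The log2 fold change was -0.63 ± 0.12 in the NAc and -0.88 ± 0.13 in the VTA (limma adjusted p = 0.00310 and 0.000824).

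Tmem119 and Aif1 were the members with overlapping ranges. Tmem119 in the NAc ranged from 15.4 to 20.8 CPM (median 18.4) after PBS and from 14.1 to 18.8 (median 16.5) after morphine, with a log2 fold change of -0.16 ± 0.08 that did not pass (limma adjusted p = 0.189). In the VTA it ranged from 14.8 to 20.9 (median 19.1) after PBS and from 10.3 to 13.9 (median 12) after morphine, with no overlap and a log2 fold change of -0.60 ± 0.11 (limma adjusted p = 0.00202). Aif1 was the least abundant member, with 9 to 61 reads per library in the NAc and 11 to 39 in the VTA, and the least precise. Its log2 fold change was -0.58 ± 0.22 in the NAc (limma adjusted p = 0.0838) and -0.61 ± 0.21 in the VTA (0.0454), and leaving out any 1 of 9 of the 12 VTA libraries took the latter past 0.05 (adjusted p up to 0.0990).

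The C1q chains were all lower after morphine in both regions. C1qb in the NAc was at 25.7, 27.7 and 22.9 CPM in wild-type and 22.9, 23.9 and 23.4 in Vdr-/- mice after PBS, and at 20.9, 19.6 and 18.7 in wild-type and 20.1, 22.4 and 18.8 in Vdr-/- mice after morphine. In the VTA it was at 32.0, 25.7 and 33.3 in wild-type and 28.0, 30.6 and 23.5 in Vdr-/- mice after PBS, and at 16.5, 18.3 and 15.9 in wild-type and 16.4, 19.4 and 17.4 in Vdr-/- mice after morphine. The injections did not overlap in either region, and the gap was wider in the VTA. Log2 fold changes of C1qa, C1qb and C1qc were -0.35 ± 0.08, -0.28 ± 0.07 and -0.24 ± 0.07 in the NAc (limma adjusted p = 0.00815, 0.0102 and 0.0245). C1qc in the NAc missed the threshold without wild-type morphine mouse 1.1 or Vdr-/- morphine mouse 2.1 or 2.2 (limma adjusted p from 0.0507 to 0.0598). In the VTA they were -0.75 ± 0.10, -0.73 ± 0.09 and -0.68 ± 0.09 (limma adjusted p = 0.000634, 0.000308 and 0.000496).

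**Figure D2:**
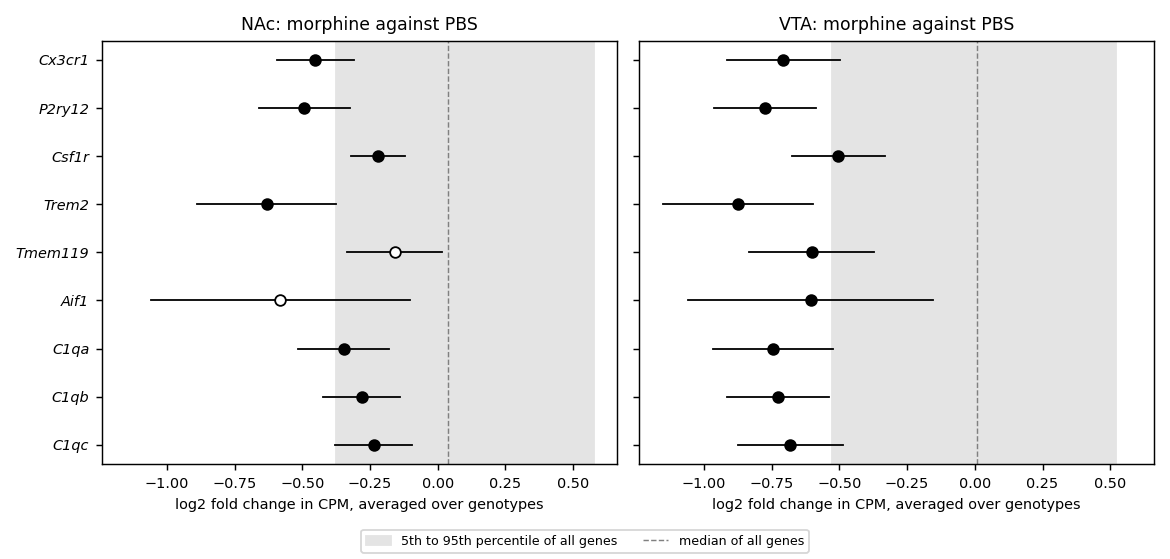
Log2 fold change in CPM (x axis) of each member, morphine against PBS averaged over genotypes, in the NAc (left) and VTA (right), with 95% confidence intervals from limma. Filled points have an adjusted p under 0.05, open points do not, the grey band is the 5th to 95th percentile of all genes tested and the dashed line their median. All 9 points lie below 0 in both panels, and in the VTA 8 of 9 lie left of the band against 4 of 9 in the NAc.

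Counted without a model, the 6 morphine libraries lay below all 6 PBS libraries for 7 of 9 members in the NAc, where this held for 2.91% of all genes tested, and for 8 of 9 in the VTA (5.27%). An exact permutation test of each member, two-sided and with injections exchanged within genotype, gave p = 0.005, the smallest that the 400 arrangements allow, for 8 members in the NAc (Tmem119 0.09) and 8 in the VTA (Aif1 0.025). Without the NAc library of wild-type PBS mouse 2, 7 members passed in the NAc as before, with log2 fold changes from -0.14 (Tmem119) to -0.56 (Trem2).

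Within single genotypes the direction was the same and fewer members passed, with 3 libraries or fewer in each arm. All 9 log2 fold changes lay below 0 in each of the 4 comparisons. In the NAc of wild-type mice 1 member passed (Cx3cr1, -0.58 ± 0.08, limma adjusted p = 0.0368), where 0.813% of all genes passed and 0.400% were lower. In the NAc of Vdr-/- mice 6 passed (19.1% of all genes, 9.13% lower): Cx3cr1, P2ry12, Csf1r, Trem2, C1qa and C1qc. The VTA tables of this comparison hold only 2 PBS libraries per genotype. There 5 members passed in wild-type mice (3.65%, 1.88% lower), namely Cx3cr1, P2ry12, Csf1r, C1qa and C1qb, and 4 in Vdr-/- mice (10% of all genes, 5.28% lower), namely P2ry12, Trem2, C1qb and C1qc. These counts rest on single libraries: the wild-type VTA count was 0 without PBS mouse 1, PBS mouse 2 or morphine mouse 1.2 and 8 without morphine mouse 1.1. The Vdr-/- VTA count was 0 without PBS mouse 7 or morphine mouse 2.2 and 1 without PBS mouse 9 or morphine mouse 2.1. The Vdr-/- NAc count was 3 without PBS mouse 9. The wild-type NAc count was 0 without any 1 of 5 of the 6 libraries and 2 without PBS mouse 2. Shares of all genes called in these reduced fits are not given here. Changes in these counts are therefore not read as changes particular to the members.

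The members did not all move by the same amount in the NAc. Against the mean log2 level of the other 8 members, Trem2 was lower after morphine than after PBS by a difference of -0.29. Csf1r (0.18), Tmem119 (0.25) and C1qc (0.16) were higher relative to the rest. Each of these 4 had p = 0.045 after Benjamini-Hochberg adjustment over the 9 members in that region (exact permutation, two-sided). In the VTA no member passed, the nearest being Csf1r with 0.21 (exact p = 0.01, adjusted 0.09). This comparison was added after the values were seen.

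The vitamin D receptor genotype was not accompanied by a difference in any member that passed the threshold. In the NAc 0 of 9 passed after PBS (limma; 0.0690% of all genes did) and 0 after morphine (0.192%), and in the VTA 0 after PBS (0.390%) and 0 after morphine (0.0624%). At an unadjusted p under 0.05 the counts were 2, 0, 2 and 1 members among 1424 of 15933, 1209 of 15638, 2338 of 16425 and 1406 of 16029 genes, and edgeR and DESeq2 called 0 in each. After PBS all 9 log2 differences, Vdr-/- minus wild-type, lay below 0 in both regions, from -0.42 to -0.02 in the NAc (median -0.12) and from -0.43 to -0.04 in the VTA (median -0.17). All members come from the same 6 mice there, so their shared sign is not 9 independent observations. Cx3cr1 had -0.23 ± 0.07 in the NAc and -0.30 ± 0.12 in the VTA, and Trem2 -0.27 ± 0.12 and -0.43 ± 0.13. In the VTA the 95% interval did not include 0 for Trem2 (-0.72 to -0.14, limma adjusted p = 0.207) and Cx3cr1 (-0.58 to -0.03, 0.315). In the NAc the same held for Cx3cr1 (-0.41 to -0.06, limma adjusted p = 0.473) and Tmem119 (-0.44 to -0.02, 0.536). The intervals of the other members included 0. Without the VTA library of Vdr-/- PBS mouse 9, which lay below its group mean for all 9 members by an average of -0.25, the value for Cx3cr1 was -0.18.

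After morphine the genotype differences had mixed signs in the NAc (5 of 9 above 0, from -0.09 to 0.17), and 8 of 9 lay above 0 in the VTA (from -0.06 to 0.21). Averaged over injections 0 of 9 passed in either region, where 0.336% of genes passed in the NAc and 0.515% in the VTA. The test of whether the morphine effect differed between genotypes called 0 members and 0 genes of 16375 in the NAc and of 16505 in the VTA by limma. At an unadjusted p under 0.05 it held 0 members of 907 genes in the NAc and 2 members of 1748 genes in the VTA. Those 2 were Cx3cr1, at 0.42 (95% interval 0.08 to 0.76, limma adjusted p = 0.387), and Csf1r, at 0.31 (0.01 to 0.61, 0.460). Trem2 had the largest interaction value of the members there, 0.46 (-0.04 to 0.96, limma adjusted p = 0.499). With 3 mice per group the intervals were wide.

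The regions were compared within each mouse. Over all 12 mice, 6 of 9 members were higher in the NAc than in the VTA, where 71.3% of 16561 genes differed and 29.0% were higher in the NAc (limma with mouse as a block). These were Cx3cr1 (log2 difference 0.29 ± 0.06), P2ry12 (0.31 ± 0.07), Csf1r (0.20 ± 0.06), Trem2 (0.27 ± 0.08), Tmem119 (0.23 ± 0.09) and Aif1 (0.59 ± 0.12). The C1q chains did not pass, at -0.01 ± 0.08 (C1qa), -0.01 ± 0.08 (C1qb) and 0.06 ± 0.08 (C1qc), and the first pair lay slightly above 0 with other scalings. Tmem119 missed the threshold without any 1 of 6 of the 12 mice (limma adjusted p up to 0.0837). The members' count is therefore read against a background in which most genes differ between regions.

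The region comparison was also split by injection, which was done after the values were seen. After PBS 2 members were higher in the NAc (Cx3cr1 0.17 ± 0.06 and Aif1 0.58 ± 0.17) and 1 lower (C1qb -0.23 ± 0.09), where 64.4% of genes passed, 25.5% higher and 38.9% lower. C1qa (-0.21 ± 0.09) and C1qc (-0.16 ± 0.09) had the sign of C1qb without passing. A single member passed in PBS mice without wild-type mouse 1 or Vdr-/- mouse 7. After morphine all 9 were higher in the NAc (59.4% of genes passed, 25.2% higher), from 0.19 ± 0.08 for C1qa to 0.60 ± 0.19 for Aif1. C1qa lost its call without wild-type mouse 1.0 or 1.1 or Vdr-/- mouse 2.0 or 2.2 (limma adjusted p from 0.0666 to 0.138), and Aif1 without wild-type mouse 1.0 or Vdr-/- mouse 2.1 (0.0612 and 0.0649), so that 7 to 9 members passed. C1qb was higher in the NAc in 1 of 6 PBS mice, with differences from -0.54 to 0.11, and in 6 of 6 morphine mice, with differences from 0.10 to 0.34.

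The change of morphine effect between the regions was above 0 for all 9 members, from 0.03 (Aif1) to 0.45 (C1qb), so that the decrease was the larger in the VTA. It passed the threshold for C1qb only (0.45 ± 0.11, limma adjusted p = 0.0313), where 9.37% of all genes passed and 6.30% did so above 0. The call was lost without any 1 of 8 of the 12 mice (limma adjusted p up to 0.0657), while 2 members passed without wild-type morphine mouse 1.1 and 3 without wild-type PBS mouse 2. C1qc (0.45 ± 0.13, limma adjusted p = 0.0603) and Tmem119 (0.44 ± 0.14, 0.0670) came next. The same mice supply both regions, so the 9 values share their libraries.

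**Figure D3:**
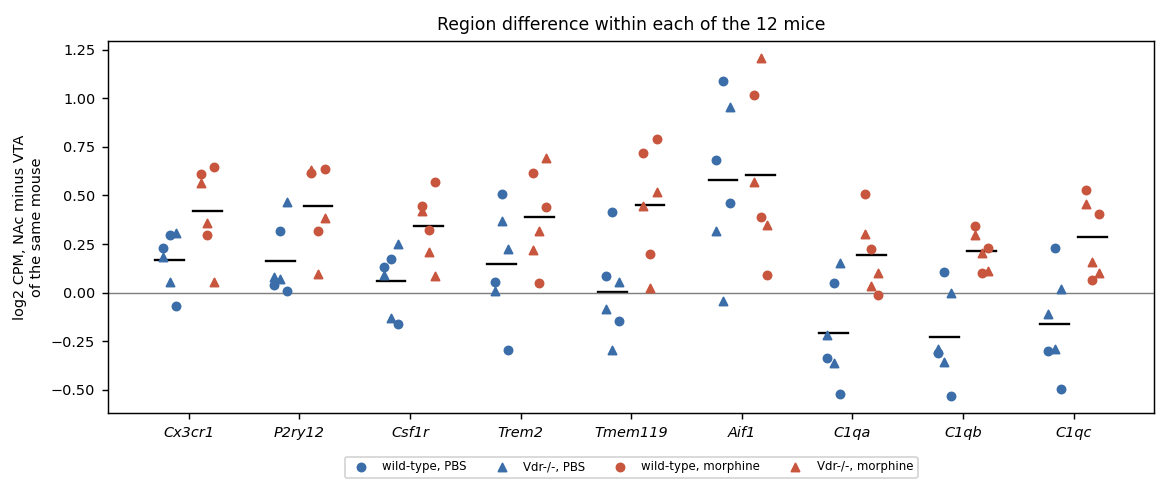
Log2 CPM in the NAc minus that in the VTA of the same mouse (y axis) for each member, with PBS mice in blue, morphine mice in red, circles for wild-type and triangles for Vdr-/-. Bars are means of 6 mice. C1qb lies below 0 in 5 of 6 PBS mice and above 0 in 6 of 6 morphine mice.

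Within groups, the 9 genes varied together from library to library. Over the 24 libraries, after removal of group means, the correlation of each member with the mean of the other 8 ranged from 0.53 (Trem2) to 0.84 (C1qa), which describes libraries that also share depth and dissection. In the VTA all 9 members were above the group mean in wild-type PBS mouse 3 and in wild-type morphine mouse 1.1, and all 9 below it in wild-type PBS mouse 2, wild-type morphine mouse 1.2 and Vdr-/- PBS mouse 9. Over all 12 libraries of a region, the 10 genes outside the members whose levels followed the members' mean most closely in both regions included Ckb, Rpl29, Ldhb, Slco2b1, Siglech, Anp32b, Rplp0, Six3 and S100b, of 15755 compared. Their smaller correlation of the 2 regions ran from 0.90 (S100b) to 0.93 (Ckb). Siglech is on the list of microglia surface and lineage genes and S100b on that of astrocyte genes, while the others named are on none of the lists. Among the 100 most alike genes, 8 were microglia surface and lineage genes. This likeness includes the difference between injections.

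Counts of other genes are for morphine against PBS averaged over genotypes, to be read against the shares of all genes given above (18.9% called and 6.75% lower in the NAc, 29.0% and 13.9% in the VTA). Of 20 surface and lineage genes 7 fell in the NAc (median log2 fold change of the list -0.22) and 19 in the VTA (-0.54), with none higher and 13 and 1 not called. P2ry13, a nucleotide receptor related to P2ry12, had -0.63 ± 0.13 in the NAc and -0.99 ± 0.12 in the VTA (limma adjusted p = 0.00457 and 0.000329). Siglech, a sialic acid-binding lectin, had -0.50 ± 0.09 in the NAc. Of 8 microglia transcription factors 2 fell in the NAc, among them Spi1 (-0.59 ± 0.19), and 2 in the VTA, Irf8 (-0.82 ± 0.23) and Tal1 (-1.55 ± 0.42), while the other 6 in each region were not called. Of activated microglia genes 5 of 17 tested rose and 3 fell in the NAc (median 0.06), among them Cd74 (1.39 ± 0.28) and Lpl (-0.52 ± 0.07), and 0 of 16 rose and 9 fell in the VTA (median -0.41), among them Cd68 (-0.58 ± 0.11). The difference between regions was not tested for these lists.

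Among ligands and partners of the member receptors, Tyrobp, the adaptor of Trem2, fell by 0.30 on the log2 scale in the NAc and by 0.84 in the VTA (limma adjusted p = 0.0457 and 0.000466). Il34, the neuronal ligand of the Csf1r receptor, fell in the NAc (-0.36 ± 0.07), and Csf1, the other ligand, fell in the VTA (-0.27 ± 0.05). Of this list of 12 genes, 1 rose and 3 fell in the NAc, and 1 rose and 7 fell in the VTA. Of the other complement genes 2 of 22 tested rose and 1 fell in the NAc, where Serping1, the inhibitor of the C1 complex, had 0.88 ± 0.13 and the list's median was 0.17. In the VTA 2 of 23 rose and 7 fell, among them C4b, which is cleaved by activated C1 (-0.92 ± 0.16), with a median of -0.25. Among C1q-related secreted genes of neurons, which share the C1q domain and not the microglial source, 2 of 7 rose and 1 fell in the NAc, with C1ql2 at 1.71 ± 0.35, and 3 of 9 rose and 1 fell in the VTA, with Cbln1 at 0.71 ± 0.12. Of cytokine and innate immune genes 1 of 11 rose in the NAc (Ptgs2, 0.95 ± 0.20) and 2 of 10 fell in the VTA (Tlr2, -0.72 ± 0.20, and Il10ra, -0.47 ± 0.15).

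**Figure D4:**
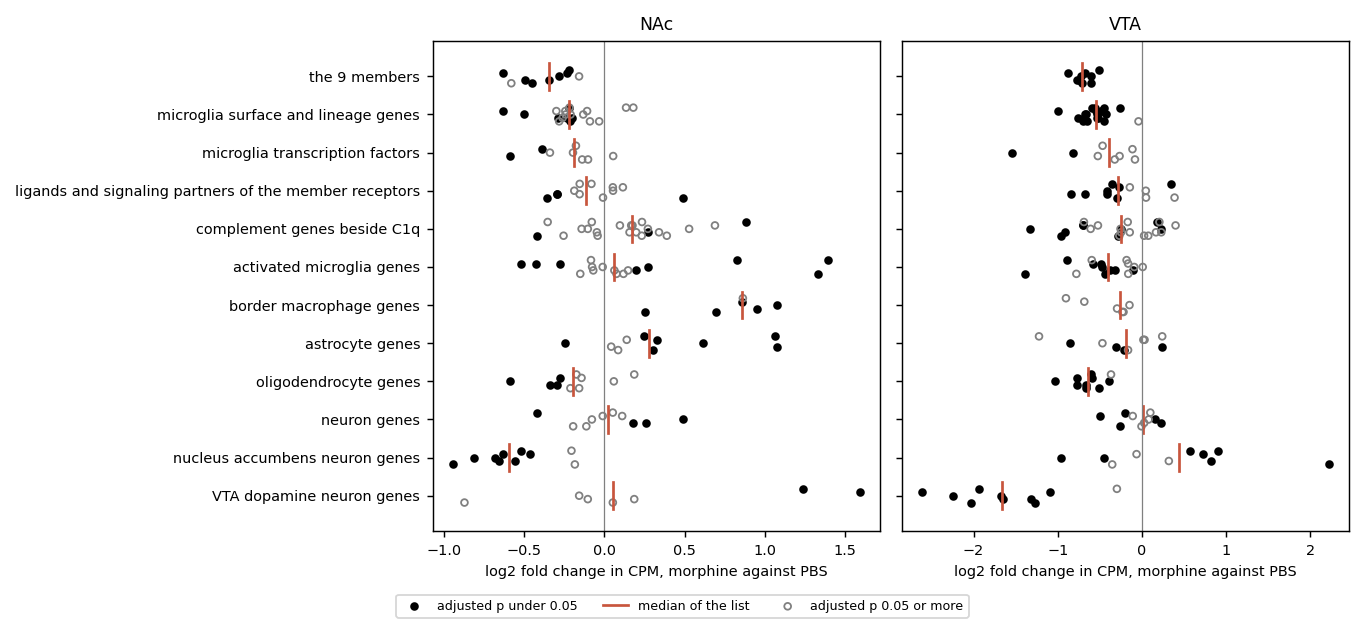
Log2 fold change in CPM (x axis) of every tested gene of each list, morphine against PBS averaged over genotypes, in the NAc (left) and VTA (right; the x axes differ in range). Filled points have an adjusted p under 0.05 by limma, open points do not, and red bars are list medians. The members lie left of 0 in both panels, as do NAc neuron genes in the NAc (median -0.60) and VTA dopamine neuron genes in the VTA (median -1.66).

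Genes of other cells moved with injection in the same libraries. In the VTA 9 of 10 dopamine neuron genes fell, among them Th (-1.94 ± 0.51), and their summed level was 678 to 3435 CPM after PBS and 272 to 1445 after morphine. By genotype, with 2 PBS libraries in each fit, 7 of 10 fell in wild-type mice (median -2.98, 1.88% of all genes lower). In Vdr-/- mice 0 fell and 1 rose (median -0.01, 5.28% of all genes lower). The 9 members had medians of -0.80 and -0.47 in these fits. The summed level of the dopamine neuron genes ran from 678 to 2668 CPM over the 3 Vdr-/- PBS libraries. The interaction test called 0 of 16505 genes in the VTA, so these counts do not show a difference between genotypes. The members were not tested against this list. Oligodendrocyte genes fell in the VTA too, 9 of 10 averaged over genotypes (median -0.64, Mag -0.77 ± 0.11). Their sums were 12388 to 13636 CPM after PBS and 6418 to 10513 after morphine. In the NAc 8 of 10 NAc neuron genes fell, among them Drd2 (-0.68 ± 0.08), with sums of 3080 to 4215 CPM after PBS and 2040 to 2900 after morphine, and 4 of 10 oligodendrocyte genes fell, with sums of 4294 to 6277 and 3928 to 5093. Macrophages at the borders of the brain showed the opposite sign in the NAc: 5 of 6 tested border macrophage genes rose (Mrc1 0.86 ± 0.15), with sums of 28.3 to 29.9 CPM after PBS and 32.9 to 41.8 after morphine, as did 5 of 5 choroid plexus and meningeal genes (Col1a2 1.22 ± 0.10; sums 22.2 to 31.5 and 36.0 to 61.3). In the VTA 0 of 6 in each of these lists passed. Blood genes had a median of -1.23 in the VTA (1 of 3 tested fell), with sums of 36.3 to 214 CPM after PBS and 14.4 to 65.6 after morphine, and of -0.61 in the NAc (0 of 3 called), with sums of 18.8 to 66.7 and 11.7 to 25.6. Of endothelial and mural genes 3 of 11 fell in the VTA and 0 of 11 were called in the NAc, and of oligodendrocyte precursor genes 2 of 5 fell in the VTA and 2 of 5 rose in the NAc. General neuron genes rose for 3 and fell for 1 of 10 in the NAc and rose for 2 and fell for 3 in the VTA. Astrocyte genes rose for 6 and fell for 1 of 10 in the NAc and rose for 1 and fell for 3 in the VTA, with sums of 3560 to 5382 and 5028 to 5613 CPM in the NAc and 4664 to 5590 and 4577 to 5028 in the VTA. Of the blood genes, Hbb-bs and Hbb-bt had no values under these symbols. Every other gene of the lists in this paragraph had reads in at least 1 library. The part of these differences in punch content in the lower levels of the 9 members was not tested.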

How the data were processed

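RNA of each punch was made into stranded mRNA libraries and sequenced in paired ends. The authors checked reads with FastQC, trimmed adapters with Trimmomatic 0.36, mapped and counted reads per gene with STAR 2.4.2a and normalized them with DESeq2 (CASAVA 1.8 is also named in the submitters' processing notes). The counting strand is not given in the sources used here. The deposited values are signal, the authors' normalized read counts, in 8 tables with 46 library columns, each holding the libraries of 2 groups. Division by what 1 read is worth in a library gave whole reads for 100% of values (tolerance 0.01). The 22 libraries present in 2 tables gave the same reads in both (0 genes differed). No 2 replicates were duplicates (chi-square per degree of freedom 3.99 to 34.5).

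Groups came from the sample labels, which give both regions of a mouse the same number. Within a table, limma 3.58.1 (trend, two-sided) was run on log2(value + 1) after dropping genes that averaged under 10. The averages over genotypes or injections, the interaction and the region comparison used log2(CPM + 0.1) of these reads for genes averaging 0.5 CPM or more, because the deposited tables hold 1 region and 2 groups each. P-values were adjusted by the Benjamini-Hochberg method over all genes tested, at 0.05. Fold changes include the pseudocount and understate changes of low genes. For the VTA, the authors' tables for the 2 injections have 5 columns, wild-type PBS mouse 3 and Vdr-/- PBS mouse 8 being the libraries left out. The fits were tested on simulated data.

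Alternatives were a larger pseudocount, no filter, quantile and TMM scaling, edgeR 4.0.16, DESeq2 1.42.0, each library left out, and the replicate number as a block. For the region comparison the mouse was the block, since the labels give both punches of a mouse the same number. Named genes are the 9 members, at most 4 past the threshold with the smallest p from each list in the comparison described, and the 10 genes most alike, of which some are not reported here. The members and lists were chosen with earlier results of these data known. Positions and lengths (the transcript with suffix 201) were read from GENCODE M21 (GRCm38), where 30204 of 30270 identifiers were found (99.8%), and promoter windows from RefSeq. A p-value over libraries sets a difference between groups against the spread between mice of a group. In the region comparison that spread is the one of the difference within a mouse.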

Additional observations from a re-analysis of the deposited data

Results flagged for a closer look

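The morphine effect on C1qb passed the threshold in a test of a difference between the regions. Its log2 fold change, morphine against PBS, was 0.45 higher in the NAc than in the VTA (0.45 ± 0.11 SE, limma adjusted p = 0.0313, test of the difference with mouse as a block, 24 libraries). It was the single member past the threshold. C1qc (0.45 ± 0.13, limma adjusted p = 0.0603) and Tmem119 (0.44 ± 0.14, 0.0670) had nearly the same estimate without passing. The C1qb difference ranged from 0.38 (without wild-type PBS mouse 3) to 0.52 (without wild-type PBS mouse 2) with 1 mouse left out, and its limma adjusted p from 0.0124 to 0.0657. In 8 of the 12 cases that p exceeded 0.05. This comparison was added after the values were seen.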

How the results depend on the processing

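For morphine against PBS, 764 of 765 recomputed values of the members lay below 0. The exception was Aif1 in the VTA of Vdr-/- mice, which ranged from -0.896 to 0.0579 with 1 library left out and was above 0 without PBS mouse 7. Averaged over genotypes, 6 to 7 members passed in the NAc and 8 to 9 in the VTA with 1 library left out. Within genotypes the counts were less stable: with 1 library left out they ran from 0 to 2 (NAc, wild-type), 3 to 5 (NAc, Vdr-/-, 3 without PBS mouse 9), 0 to 8 (VTA, wild-type, 8 without morphine mouse 1.1) and 0 to 4 (VTA, Vdr-/-, 1 without PBS mouse 9 or morphine mouse 2.1). Where 1 library was left in an arm, it was assumed to vary like the others. DESeq2 called 3 members in the wild-type NAc in place of 1 and 8 in the wild-type VTA in place of 5. The fit with all 3 PBS libraries gave 8 in the wild-type VTA. Shares of all genes called are not given here for these settings or for the fits with 1 library left out. The counts are therefore not read as results about the members. The cause of the changes in count was not tested.

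In the region comparison C1qa and C1qb changed sign, at 0.0657 and 0.0613 with quantile normalization, 0.0599 and 0.0589 with TMM scaling, 0.0513 and 0.0486 with edgeR and 0.0516 and 0.0487 with DESeq2, and ran from -0.0541 to 0.0395 and from -0.0402 to 0.0395 with 1 mouse left out (above 0 without wild-type PBS mouse 1 or 3 or Vdr-/- PBS mouse 7 or 8, and with 1 PBS mouse left out not under -0.0219 and -0.0188). In PBS mice alone 1 to 4 members passed with 1 mouse left out (1 without wild-type PBS mouse 1 or Vdr-/- PBS mouse 7), and Tmem119 ran from -0.0776 to 0.0648. Without the replicate block of mouse, 2 members passed in place of 6. The difference of the morphine effect between regions passed for 0 to 3 members with 1 mouse left out (3 without wild-type PBS mouse 2, 2 without wild-type morphine mouse 1.1) and for 0 with no filter on low values, where more genes were tested.

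The digit after the point of the morphine mice was tried as a replicate block between genotypes and left the count at 0 in both regions. Same-numbered libraries had correlations of deviations of -0.06 to -0.02 in the NAc and -0.24 to -0.10 in the VTA. These values gave no sign that the digits pair mice. The NAc and VTA libraries with the same mouse number had correlations from -0.08 to 0.17. The pairing of punches used as a block therefore rests on the labels, and this measure does not check it. No genotype comparison called a member under any setting run. Depth limits Aif1 most, which had 9 to 61 reads per library.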
